A study of Mus musculus with 6 samples.

Results

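The start sites of coding genes were examined for methylated DNA in 6 male C57BL/6 mice, from hippocampus taken on postnatal day 21. The assay was MeDIP-seq, in which sheared DNA is precipitated with a monoclonal antibody to 5-methylcytosine and sequenced, and places where reads pile up are reported as peaks. The ethanol group was 3 pups given 2.5 g/kg ethanol in 0.15 M NaCl under the skin, 2 injections on postnatal day 4 and 2 on postnatal day 7, and the saline group was 3 pups given 0.15 M saline on the same schedule. Per the labels they were matched littermates. The litter of each pup is not stated in the sources at hand, and each animal was taken as an independent sample. The peaks described here are those that the authors classed as promoter peaks and whose summit, the position of highest coverage, lay within 500 bp of the transcription start site (TSS). There were 1284 such peaks among 4544 promoter-class peaks and 148832 peaks of all classes in the 6 lists, and they merged into 400 start-site regions of 48853 regions in all.

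In mammals most CpG-rich promoters are kept free of methylation, whether or not the gene is active, while CpG-poor promoters are often methylated in tissues that do not use the gene. A small set of CpG-rich promoters is methylated in body cells all the same. It includes genes used only in germ cells, which are silenced in the early embryo, and imprinted genes, where the copy from one parent is methylated and the other is not. The antibody favours stretches with many methylated CpG sites, so both methylation and CpG content weigh on whether a peak is found. The lists hold no expression values, so the labelled tissue could not be checked against marker transcripts.

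The following sequences show the DNA at start sites of each kind. They are read from mm10 in the direction of transcription, with every CpG in capitals. The RefSeq starts are those of GRCm38.p6, which has the coordinates of mm10. The germline starts with the highest ranks of significance were dense in CpG.
Dazl, before the start, chr17:50293621-50293820, minus strand: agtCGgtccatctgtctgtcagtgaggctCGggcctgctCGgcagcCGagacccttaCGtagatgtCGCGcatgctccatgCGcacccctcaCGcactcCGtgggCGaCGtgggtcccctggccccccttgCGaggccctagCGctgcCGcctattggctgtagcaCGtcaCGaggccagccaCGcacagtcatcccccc
Sycp2, around the summit, chr2:178407373-178407523, minus strand: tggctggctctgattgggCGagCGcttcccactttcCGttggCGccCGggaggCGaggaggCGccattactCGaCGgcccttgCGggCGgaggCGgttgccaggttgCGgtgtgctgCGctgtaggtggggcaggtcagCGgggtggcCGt
Sycp1, around the summit, chr3:102935713-102935863, minus strand: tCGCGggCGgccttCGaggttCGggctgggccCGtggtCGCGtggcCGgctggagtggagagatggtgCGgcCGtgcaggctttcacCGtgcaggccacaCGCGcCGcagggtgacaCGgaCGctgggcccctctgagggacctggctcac
Slc25a31, around the summit, chr3:40709002-40709152, plus strand: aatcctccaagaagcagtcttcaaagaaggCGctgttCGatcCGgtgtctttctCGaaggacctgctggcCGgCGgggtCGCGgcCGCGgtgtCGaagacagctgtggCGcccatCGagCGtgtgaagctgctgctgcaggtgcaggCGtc
The Dazl window holds 18 CpG in 200 bases, and the 151 bases around the summits hold 16 in Sycp2, 17 in Sycp1 and 15 in Slc25a31. The first imprinted starts by rank had 12 CpG in the 200 bases before Mest and 15 before Plagl1. The windows differ in length and place, so they are not compared; over whole peak regions the density was 7.11 CpG per 100 bp at Dazl, 6.11 at Sycp2, 7.67 at Sycp1 and 5.97 at Slc25a31, and 7.21 at Mest and 6.27 at Plagl1.
Mest, before the start, chr6:30737853-30738052, plus strand: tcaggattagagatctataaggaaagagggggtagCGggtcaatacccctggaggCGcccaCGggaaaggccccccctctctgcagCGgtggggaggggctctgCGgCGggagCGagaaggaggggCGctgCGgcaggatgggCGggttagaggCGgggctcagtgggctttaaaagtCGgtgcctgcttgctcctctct
Plagl1, before the start, chr10:13090632-13090831, plus strand: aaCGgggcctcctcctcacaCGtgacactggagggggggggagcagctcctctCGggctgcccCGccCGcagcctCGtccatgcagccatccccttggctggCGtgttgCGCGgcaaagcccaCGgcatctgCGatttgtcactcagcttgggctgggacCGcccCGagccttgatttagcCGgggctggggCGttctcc
The last 4 sequences are from start sites with a peak in every library of 1 group and in none of the other. The first pair had peaks in ethanol libraries only, with 5 CpG in 200 bases before Slc10a1 and 1 in 151 bases at the Mrgpra6 summit.
Slc10a1, before the start, chr12:80968080-80968279, minus strand: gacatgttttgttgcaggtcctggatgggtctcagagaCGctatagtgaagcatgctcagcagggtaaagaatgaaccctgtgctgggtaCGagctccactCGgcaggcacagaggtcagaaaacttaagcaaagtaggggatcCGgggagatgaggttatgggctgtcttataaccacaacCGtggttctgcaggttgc
Mrgpra6, around the summit, chr7:47189087-47189237, minus strand: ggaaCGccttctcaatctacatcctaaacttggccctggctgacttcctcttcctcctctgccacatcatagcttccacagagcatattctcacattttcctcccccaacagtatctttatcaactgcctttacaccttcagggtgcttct
The second pair had peaks in saline libraries only. The window at the Sema3f summit holds 0 CpG in 151 bases, and the window before Rhox4e holds 4 in 200.
Sema3f, around the summit, chr9:107710846-107710996, minus strand: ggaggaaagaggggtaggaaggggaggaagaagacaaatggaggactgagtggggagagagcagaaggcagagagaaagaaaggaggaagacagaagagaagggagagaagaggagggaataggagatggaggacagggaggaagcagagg
Rhox4e, before the start, chrX:37557212-37557411, plus strand: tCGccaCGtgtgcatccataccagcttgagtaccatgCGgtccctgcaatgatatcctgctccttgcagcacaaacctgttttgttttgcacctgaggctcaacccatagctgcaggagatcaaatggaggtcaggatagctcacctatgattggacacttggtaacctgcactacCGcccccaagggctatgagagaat

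Start-site peaks were centred inside the gene more often than before it, in all 6 libraries. Between 125 and 199 summits per library (median 158.5) lay 0 to 500 bp downstream of the TSS, and between 45 and 68 (median 51.5) lay in the 500 bp upstream. Numbers were lower still from 1000 bp to just over 500 bp upstream, at 30 to 65 summits (median 44), and rose again farther out. Of the 1217 start-site peaks with a matched transcript structure, 37.3% had their summit in a coding exon, 23.0% upstream of the start, 20.8% in a 5′ untranslated exon and 18.9% in an intron. Across libraries the coding-exon share was between 34.0% and 40.2%. The border of 500 bp cut through a flat stretch of this profile. The last 100 bp inside it, counting both sides of the TSS, held 23 to 46 summits per library, with a median CpG density of 2.71 to 3.36 per 100 bp. The first 100 bp outside held 26 to 42, at 2.98 to 3.51 per 100 bp.

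**Figure D1:**
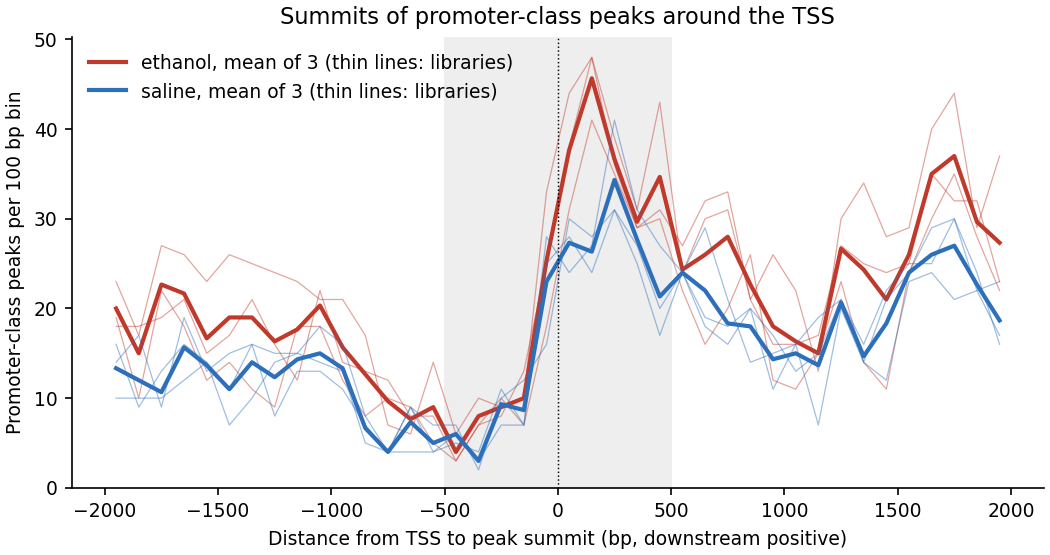
Promoter-class peaks per 100 bp bin (y axis) against the signed distance from TSS to summit in bp (x axis), for 3 ethanol and 3 saline libraries (thin lines) and their means (thick lines), with the 500 bp window shaded. In both groups summits are few in the 1000 bp before the TSS and crowd into the 500 bp after it, where each library has 125 to 199.

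Peaks within 500 bp of the TSS differed from the other promoter-class peaks, more than 500 and up to 2000 bp away, in every library. Median CpG density was 4.05 ± 0.214 per 100 bp within 500 bp and 2.80 ± 0.234 beyond (SD over 6 libraries), higher near the TSS in 6 of 6 libraries. Repeat-derived bases, those soft-masked in the genome, made up 5.65% ± 0.220 of the median peak near the TSS and 12.3% ± 2.47 beyond, lower in 6 of 6. Their median fold enrichment, the authors' ratio of the summit to local background, was 7.74 ± 0.359 near and 7.36 ± 0.234 beyond. In these measures and in peak length (584 bp near, 564 bp beyond) all 6 libraries moved the same way. The summit lay downstream of the TSS in 74.6% ± 2.30 of near and 62.5% ± 2.02 of farther peaks. A peak shared by all 6 lists made up 54.1% ± 8.47 of near and 41.0% ± 8.25 of farther peaks. Starts of the low CpG class, described in the next paragraph, took 41.7% ± 3.85 of near and 52.3% ± 0.664 of farther peaks. Each of these differences gave the smallest p that a two-sided exact sign-flip permutation test over 6 libraries allows, which was 0.0352 after Benjamini-Hochberg adjustment over 9 measures. The share at starts of the high CpG class, 14.7% ± 1.88 near and 17.1% ± 1.77 beyond, did not pass (exact sign-flip permutation p = 0.156). The libraries share many of these loci, so the test covers the spread between animals and not that between promoters. A test of each of the 9 differences between ethanol and saline libraries gave adjusted p from 0.45 to 0.9 (exact permutation).

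Set against all promoters rather than against farther peaks, the start sites with a peak were poor in CpG. RefSeq promoter windows, 250 bases before to 50 after the start, had a median of 2.67 CpG per 100 bp at the 290 regions that matched one and 4.67 per 100 bp over 20488 coding promoters. Coding starts were divided by the usual 500 bp window criteria into high, intermediate and low CpG classes. A start-site peak was found at 42 of 9818 high-class starts (0.428%), 158 of 6279 intermediate-class starts (2.52%) and 201 of 9902 low-class starts (2.03%), against 401 of 25999 (1.54%) overall. The high class was the rarest among regions found at all, but recurred most. Of 40 high-class regions 27 had a peak in all 6 libraries, compared with 54 of 156 intermediate and 46 of 204 low-class regions.

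**Figure D2:**
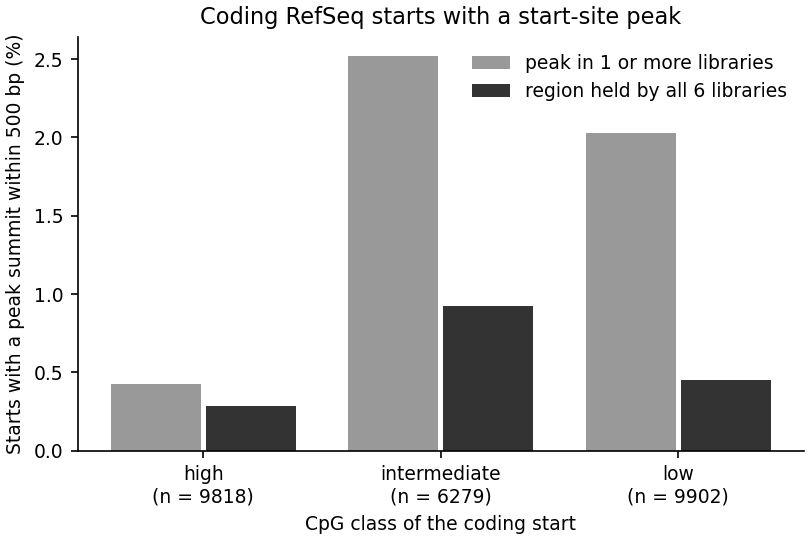
Share of coding RefSeq starts with a start-site peak in % (y axis) by CpG class of the start (x axis), in at least 1 library (grey) and in a region held by all 6 libraries (black). High-class starts have the lowest share, 0.428%, and intermediate-class starts the highest, 2.52%.

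Start-site regions recurred between animals more than regions elsewhere. All 6 libraries had a peak in 127 of 400 start-site regions (31.75%), in 235 of 1143 promoter regions more than 500 bp from the TSS (20.6%) and in 10276 of all 48853 regions (21.0%). Here and in other counts of regions held by all 6, a peak counted wherever its summit lay. In 67 of the 400 regions a library held only a peak with its summit beyond 500 bp. A single library held 93 of the start-site regions (23.25%), against 34.7% of all regions. Regions held by more libraries were denser in CpG, with a median of 4.35 per 100 bp in those held by all 6 and 2.67 in those held by 1. Their median fold enrichment was 8.72 and 6.51. A region missing from a list shows only that its coverage did not pass the peak caller's threshold there, and fold and recurrence both rise with the strength of a peak.

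**Figure D3:**
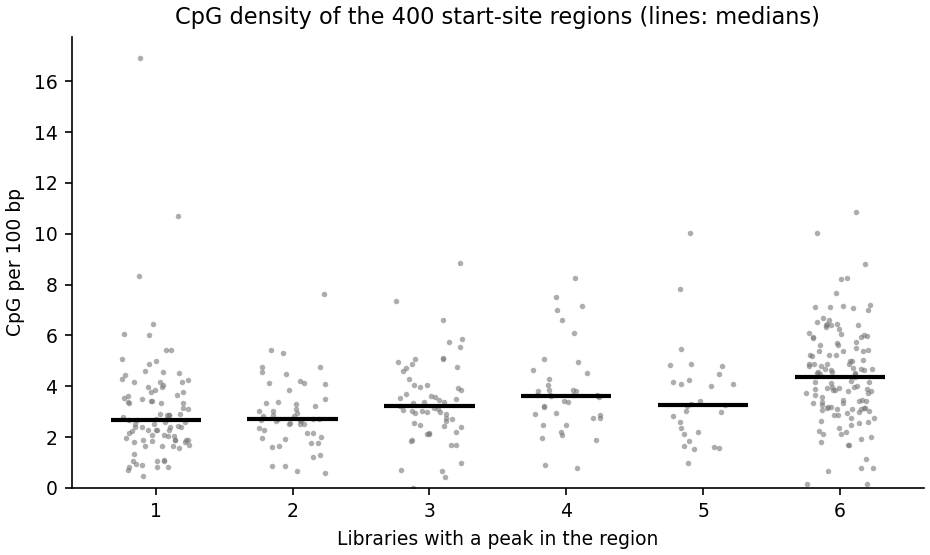
CpG per 100 bp (y axis) of each of the 400 start-site regions (points) by the number of libraries with a peak in it (x axis), with the median of each set as a line. The medians are 2.67 for 1 library and 4.35 for all 6, and the sets overlap widely.

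Germline genes were the gene list with the highest share of start-site peaks among 27 lists counted. The lists were chosen with earlier results of these data known, so the share describes the listed genes and not germline genes in general. Of 44 genes on a list of germ cell genes, 36 had a start-site peak in at least 1 library (81.8%), where 401 of 21000 coding genes (1.91%) had one. For 24 of them all 6 libraries had a peak touching the region, with its summit at any distance from the TSS. The number of listed genes with a start-site peak was 30, 30 and 28 in ethanol libraries, and 28 in each saline library. These genes belong to the main steps of germ cell biology. The synaptonemal complex, which holds paired chromosomes together in meiosis, was represented by Sycp1, Sycp2, Sycp3 and Syce1, recombination by Spo11, which makes the meiotic DNA breaks, and transposon silencing by piRNA through Mov10l1, Asz1, Tdrd1 and Piwil1. Ddx4, the germ cell RNA helicase, also had a peak in all 6.

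Dazl, an RNA-binding protein that germ cells need, had 1 peak in every list, centred on its start (chr17:50293197-50294110). Its fold enrichment was 16.7, 14.7 and 16.1 in ethanol libraries 1 to 3 and 15.2, 16.2 and 16.1 in saline libraries 1 to 3, values that overlap between the groups. The summit was 4, 20 and 33 bp from the TSS in ethanol libraries and 66, 5 and 7 bp in saline libraries. Sycp2, a lateral element protein of the synaptonemal complex, had the highest fold of the named regions (chr2:178407030-178407897). It was 16.9, 17.3 and 16.2 in ethanol libraries and 16.4, 17.4 and 17.1 in saline libraries, with summits 203 to 229 bp inside the gene in all 6. The fold across libraries was 10.9 to 14.3 for Sycp1, 11.3 to 14.5 for Slc25a31, the ADP/ATP carrier of sperm, and 10.6 to 12.6 for Fkbp6, which male meiosis needs. All of these folds are the authors' values relative to each list's own background, so they show that the peaks were strong in every animal and give no level of methylation. The weakest germline starts among those held by all 6 included Piwil1, at 4.62 to 8.17.

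The germline starts held by all 6 libraries were also dense in CpG. Listed germline starts held by fewer libraries, among them Stra8 of the low class, are left out here. Start-site regions held by more libraries were denser in CpG in general. Median CpG density was 5.93 per 100 bp in 25 germline regions held by all 6 libraries. These are the 24 of the germline list and Tex12, which is on the list of Tex genes only. The median was 3.72 in the 94 other regions held by all 6 that are off the imprinted list. Of these 25 regions 12 were of the high CpG class, 13 of the intermediate and 0 of the low class, while 46 of the 94 others were of the low class. The 94 also hold genes known from germ cells, such as Topaz1, Tdrd12 and H1fnt, of which Tdrd12 and H1fnt are of the low class. The contrast is thus between these 25 regions and the rest, and not between germline and other genes. The E-box CACGTG, read on both strands as were all motifs, was present in 12 of the 22 germline promoters that matched a RefSeq window (54.5%), in 8.03% of all coding promoters and in 11.4% of the 9882 coding promoters with 5 or more CpG per 100 bp. TCCCGC, the core of the E2F6 motif, was in 8 of the 22 (36.4%), compared with 26.5% of all and 45.5% of CpG-dense promoters. TGACGTCA, the cyclic AMP response element, was in 0 of the 22, compared with 2.30% of all. Motifs were counted separately, so overlapping matches each count, and a match describes letters in a window and not a bound site.

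Imprinted genes were the other group of CpG-dense starts whose regions had a peak in every animal. Of 43 imprinted coding genes, 10 had a start-site peak. For 9 of them all 6 libraries had a peak touching the region, in 8 regions, because the divergent genes Peg3 and Usp29 share one. Such a peak may have its summit more than 500 bp from the TSS. Start-site peaks were in 2 ethanol and 2 saline libraries at Peg10, 3 and 0 at Cdkn1c, 1 and 3 at Peg3, and 2 and 0 at Usp29. The number of imprinted genes with a start-site peak was 7, 8 and 9 in ethanol libraries and 7, 6 and 7 in saline libraries (exact permutation p = 0.3). The median CpG density of the 8 regions was 7.08 per 100 bp. Mest, a paternally expressed gene of mesoderm, had folds of 10.3, 8.78 and 7.94 in ethanol libraries and 11.3, 10.2 and 9.75 in saline libraries, which overlap. Plagl1, a growth-suppressing zinc finger protein, had 9.91 to 11.4 across the 6. Peg10, derived from a retrotransposon, had 8.86 to 10.1 in ethanol and 11.2 to 11.4 in saline libraries, which do not overlap. Nap1l5 went the other way, with 8.34 to 9.60 in ethanol and 7.01 to 7.78 in saline libraries. Neither difference was tested, and the share of all regions with folds apart in this way was not counted. It was also seen off the lists, in both directions. Naa11 had 11.4 to 13.8 in ethanol and 8.76 to 10.3 in saline libraries, and 2510049J12Rik 7.65 to 8.85 and 9.51 to 10.2. Across the 6 libraries Mcts2, a retrocopy inside another gene, had 10.1 to 12.5. Nnat, which encodes the brain proteolipid neuronatin, had 7.52 to 9.60. Peg3, a paternally expressed zinc finger gene, was weak throughout at 4.73 to 5.34. The tenth gene, Ndn, expressed in neurons from the paternal copy, had a single peak, in ethanol library 3, with its summit 474 bp from the TSS. TGCCGC, the core of the motif that ZFP57 binds when methylated, was in 5 of 6 imprinted promoters with a RefSeq window (83.3%), compared with 14.5% of all and 24.8% of CpG-dense promoters.

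At Cdkn1c the peaks of the groups lay at different places within the gene. This maternally expressed gene encodes the cell cycle inhibitor p57. All 6 libraries had a peak in its region (chr7:143459702-143461028, 10.02 CpG per 100 bp). The summit lay 193, 227 and 327 bp downstream of the TSS in ethanol libraries and 1057, 1073 and 1106 bp downstream in saline libraries, so that only the ethanol peaks fell within 500 bp. The groups did not overlap, and the gap between them was 730 bp. The fold enrichment was 5.15, 4.55 and 4.35 in ethanol libraries and 5.77, 4.39 and 5.33 in saline libraries, low and overlapping. The gene was singled out after its values were seen. Of the 127 start-site regions held by all 6 libraries, 15 had summits that did not overlap between the groups, 11.8%, and the same was true of 9.55% of all 10276 regions held by all 6. A gap of 500 bp or more was found in 1 of the 127, Cdkn1c, and in 9 of the 10276 (0.0876%). With 3 libraries a group no single region can reach an exact permutation p below 0.1.

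Some of the highest ranks went to loci whose reads may come from several copies. Sfi1, a centrosome gene, ranked first among start-site peaks in all 6 lists, with a pileup of 1500, 1500 and 1510 tags at the summit in ethanol libraries and 1464, 1433 and 1481 in saline libraries. Its fold was only 9.73 to 10.8. The next highest pileups among regions held by all 6 were 299 to 477 at Gm7120 and 225 to 341 at Dazl. How reads with several matches were handled is not stated, so the Sfi1 and Gm7120 values are uncertain. Outside the germline list, the first 10 by rank also held Sec1, a fucosyltransferase, at 12.2 to 13.8, D1Pas1, a testis RNA helicase, at 7.98 to 10.3, and Wdr20b at 12.3 to 14.3.

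Clusters of tissue-restricted genes supplied further start-site peaks, mostly weaker ones. Chromosome X held 41 of the 400 regions (10.25%), compared with 4.20% of coding starts, but 8 of the 41 had a peak in all 6 libraries. The number of X regions with a peak was 23, 30 and 23 in ethanol libraries and 20, 21 and 24 in saline libraries (exact permutation p = 0.3). Chromosome 15 also held more regions than its share of starts, 29 of 400 (7.25%) compared with 3.77% of coding starts. Of these 29 regions 13 had a peak in all 6 libraries. Rhox genes, a cluster of homeobox genes of the reproductive tract on X, had start-site peaks at 10 of 31 members, with 1, Rhox2a, held by all 6 at folds of 4.58 to 6.24. Its copies are alike in sequence, which limits how reads can be assigned among them. Keratin genes, which encode filaments of epithelia and hair, had peaks at 10 of 53 members, of which Krt75, Krt4 and Krt2 were held by all 6, with folds between 5.28 and 9.86. Olfactory receptors had them at 28 of 1107 members (2.53%), close to the 1.91% of all coding genes, with 8 held by all 6. Olfr281 was the strongest of these at 11.4 to 12.99. Tex genes, named for expression in testis, had 5 of 38, with Tex12 and Tex11 in all 6. Tex12 had folds of 11.5 to 12.2 in ethanol and 12.8 to 13.2 in saline libraries. Tex11 had 11.04 to 11.96 in ethanol and 9.74 to 10.8 in saline libraries. Both sets do not overlap, in opposite directions, and were not tested. As for the imprinted genes, the share of all regions with such folds was not counted. Zfp180, a zinc finger gene, was the single one of 395 Zfp genes (0.253%, below the 1.91% of all coding genes), at 9.01 to 13.4 in all 6.

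Most lists of genes for general cell upkeep and for brain function had no start-site peak, but at 1.91%, the share over all coding genes, lists of this size would hold 1 member or none. There were 0 among 20 housekeeping genes, 20 genes of the DNA methylation machinery, 30 histone modifiers, 21 GABA receptor genes, 25 genes of free radical scavenging, 20 neurotrophin and activity genes and 14 genes of the stress axis. Markers of neurons (16 genes), astrocytes (10), microglia and myeloid cells (13), endothelium (10) and choroid plexus (7) also had 0, and Mobp, a myelin protein gene, was the single one of 12 oligodendrocyte markers, in saline library 1 alone. Hox genes had 0 of 39. Vomeronasal receptors had 0 of 350, a list long enough that more than 1 member would be looked for at 1.91%. The cause was not tested. The lists tied to ethanol handling and injury had 1 of 14 genes (7.14%) and 2 of 26 (7.69%), above the 1.91% of all coding genes but resting on 1 and 2 genes. Adh7, an alcohol dehydrogenase, was the single ethanol metabolism gene, in ethanol library 2 at a fold of 7.89. Of the cell death genes, Casp8, the apical caspase of death receptors, had a peak in ethanol libraries 1 and 3 at 6.80 and 6.39 and in 0 saline libraries, and Fasl, a death ligand, had one in saline library 3 alone at 9.26. Grm4, a presynaptic glutamate receptor, was the single one of 26 glutamate receptor genes, in ethanol libraries 2 and 3 at 7.56 and 5.19. Mage genes had 2 of 21 (Mageb4 in 4 libraries, Mageb16 in ethanol library 3) and clustered protocadherins 3 of 57 (Pcdhb1, Pcdha5 and Pcdhga3), with 0 held by all 6.

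Each ethanol library had more start-site peaks than any saline library, and a longer list of peaks as a whole. There were 212, 256 and 255 in ethanol libraries 1 to 3 and 173, 183 and 205 in saline libraries 1 to 3, which do not overlap. The means were 241 ± 25.1 and 187 ± 16.4 (SD, n = 3 each), a ratio of 1.29 (two-sided exact permutation p = 0.1, the smallest that 3 against 3 allow; adjusted p = 0.25 over 10 measures). The whole lists held 23141, 34904 and 28386 peaks in ethanol libraries and 18922, 22703 and 20776 in saline libraries, a ratio of 1.39. Start-site peaks were 0.916%, 0.733% and 0.898% of all peaks in ethanol libraries and 0.914%, 0.806% and 0.987% in saline libraries, which overlap (exact permutation p = 0.6). With every list cut to its 18922 most significant peaks, the mean number of start-site peaks differed by -7.67, ethanol minus saline (exact permutation p = 0.4). Total reads are not in the lists. The lowest background pileup of any peak in a list, read from pileup and fold, was taken as a trace of relative depth. It averaged 2.28 ± 0.0988 for ethanol and 2.18 ± 0.419 for saline (SD over 3 libraries each, p = 0.9 in the exact permutation test). Its part in the list lengths was not tested.

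The CpG-dense part of the start-site peaks was a smaller share in each ethanol library than in any saline library, a difference that did not pass the test. Peaks with 5 or more CpG per 100 bp made up 33.5%, 26.6% and 29.02% of start-site peaks in ethanol libraries and 39.9%, 34.4% and 33.7% in saline libraries, which do not overlap (exact permutation p = 0.1, adjusted 0.25). Median CpG density was 4.16, 3.71 and 3.93 per 100 bp in ethanol libraries and 4.32, 4.17 and 4.05 in saline libraries, which overlap (p = 0.2 in the exact permutation test), and with lists of equal length the mean difference was 0.00805. Of the merged regions, 172 of 400 had a peak in more ethanol than saline libraries (43.0%) and 51 had one in more saline than ethanol libraries (12.75%). Over all 48853 regions these shares were 51.8% and 14.7%. Regions with peaks in ethanol libraries alone numbered 99 (24.75%, against 35.3% of all regions), of which 72 rested on 1 library. Those with peaks in saline libraries alone numbered 31 (7.75%, against 9.27% of all regions), of which 21 rested on 1.

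**Figure D4:**
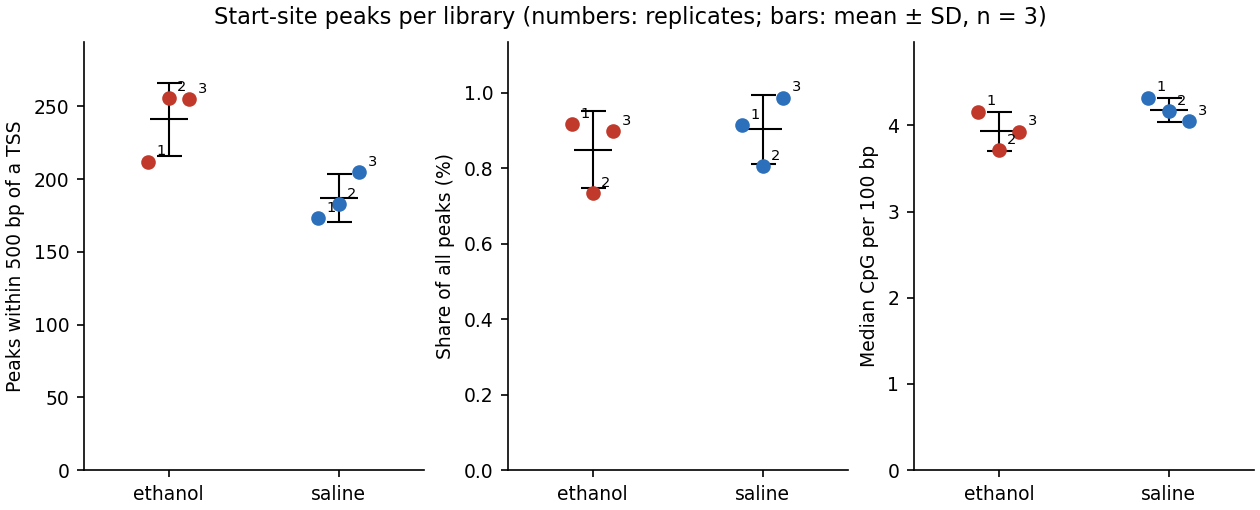
Start-site peaks per library, their share of all peaks in % and their median CpG per 100 bp (y axes), for 3 ethanol (left) and 3 saline libraries (right, numbered by replicate), with mean and SD. The counts do not overlap between the groups (212 to 256 and 173 to 205), while the shares and the CpG densities do.

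Start-site regions present in every ethanol library and absent from every saline library numbered 8 of 400 (2.00%), here called ethanol-specific, and 1.49% of all regions met the same criterion. Those present in every saline and absent from every ethanol library numbered 3 (0.75%), here called saline-specific, against 0.108% of all regions. The ethanol share was near that of all regions, and the saline share rests on 3 regions. With lists of equal length the numbers were 3 of 305 (0.984%) and 5 of 305 (1.64%), against 0.604% and 0.537% of all regions. No test of single regions was possible below an exact permutation p of 0.1.

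The ethanol-specific start sites belonged to genes known from various tissues. Slc10a1, the bile acid importer of liver, had folds of 8.94, 8.07 and 9.96 in ethanol libraries 1 to 3 and no peak in saline libraries, where the nearest peak was 39065 bp away. Mrgpra6, a receptor of the Mas-related family, had 9.80, 9.67 and 8.99 in ethanol libraries, and Pf4, the chemokine of platelets, 7.17, 8.25 and 7.63, each with no peak in saline libraries. Krt25, a hair follicle keratin, had 6.27, 6.54 and 6.65, and Csl, a citrate synthase-like gene with a single exon, 5.06, 4.98 and 5.54. These folds were at or below the typical start-site peak for Krt25 and Csl and above it for Slc10a1 and Mrgpra6. Yy2, a single-exon relative of the transcription factor gene Yy1 on X, had 6.95, 8.10 and 11.6 in ethanol libraries, and Taf9b, a subunit of the basal transcription factor TFIID, also on X, 7.59, 8.10 and 8.09. Zar1l, known from oocytes, had 7.48, 6.77 and 6.07, but in ethanol library 3 its summit was 953 bp from the TSS. With lists of equal length 3 of the 8 calls held, those of Mrgpra6, Krt25 and Csl.

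The saline-specific start sites were Sema3f, Rhox4e and I830012O16Rik, and all 3 calls held with lists of equal length. Sema3f, which encodes an axon-repelling semaphorin of the developing hippocampus, had folds of 6.63, 7.97 and 8.07 in saline libraries 1 to 3 and no peak in ethanol libraries. The region (chr9:107710691-107711209) has 0 CpG in 519 bp, as the sequence above shows for its summit, and 35.3% of it is soft-masked. The Sema3f summits were 653, 446 and 672 bp from the TSS, so that 1 of the 3 peaks was within 500 bp. A peak without CpG cannot be read as CpG methylation. Some regions held by all 6 libraries were also nearly without CpG, such as Best3 at 0.151 and Gpr133 at 0.152 per 100 bp. I830012O16Rik, annotated as an interferon-induced protein with tetratricopeptide repeats, had 6.68, 7.18 and 6.33 in saline libraries in a region with 0.417 CpG per 100 bp, and 1 of its 3 summits was within 500 bp. Rhox4e had 8.01, 8.48 and 10.01 in saline libraries, 49 to 99 bp downstream of its TSS, and no peak in ethanol libraries. Its neighbour Rhox4g had a peak in 2 ethanol and 2 saline libraries.

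**Figure D5:**
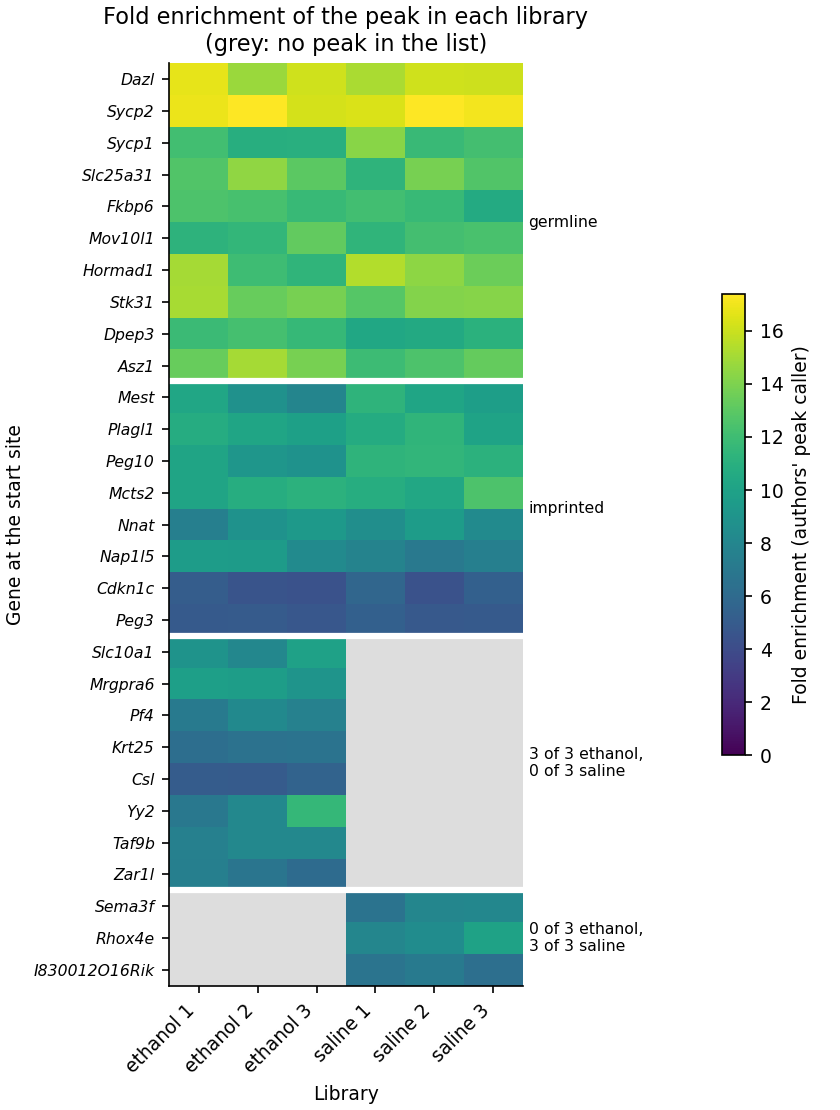
Fold enrichment of the peak in each library (columns, ethanol left of saline; colour scale from 0, grey for no peak) at the first 10 germline starts by rank, 8 imprinted starts, 8 ethanol-specific and 3 saline-specific starts (rows). The highest fold shown is 17.4 at Sycp2, and the group-specific starts lie between 4.98 and 11.6 where they have a peak. The germline rows were picked by rank, so their strength is not compared with that of the other rows.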

How the data were processed

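Per the labels, immunoprecipitated DNA was sequenced for 150 cycles, aligned to mm10 with Bowtie (Bowtie2 2.1.0 per the submitters' processing notes) and peaks were called per library by MACS version 2, stated q 0.0001. Per the file headers, the authors deposited for each peak a summit pileup (coverage signal), a fold enrichment (ratio to local background), -log10 q, the nearest coding TSS and a class. No source used here says if a control library was part of peak calling, and the parallel IgG pull-down was not analysed here. Peaks listed for several genes were counted once. Regions were merged from 1 bp of overlap, and a library held a region if any of its peaks touched it. CpG density, soft-masked share and features came from GRCm38.p6 and RefSeq (pysam 0.24.0, pandas 2.3.3, numpy 2.4.6; matplotlib 3.10.9 for figures). Transcripts were matched for 94.8% of start-site peaks. Of 407 genes named in the lists, 401 matched a coding RefSeq gene. High CpG class means a 500 bp window with observed over expected CpG above 0.75 and GC above 55%, low class none above 0.48, between 700 bp before and 200 bp after the start. Tests were two-sided exact permutations over libraries with Benjamini-Hochberg adjustment at 0.05, checked on simulated lists. The members, gene lists and tests were chosen with earlier results of these data known. Named were the first 10 regions held by all 6 libraries by mean within-list percentile of -log10 q, every group-specific region and up to 4 genes of each list. Genes named beyond this rule, Cdkn1c and the weakest or single members of lists among them, were chosen after their values were seen. Sequences are of the first regions by the same rank, without Sfi1 and Gm7120, for which no RefSeq window lay in the region; windows with over 30 untranslated bases were replaced by the 200 bases before the start.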

Additional observations from a re-analysis of the deposited data

How the results depend on the processing

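The deposited lists hold no counts for regions without a peak, so depth limits every absence, and 3 against 3 libraries cannot give a p below 0.1. With lists of equal length, ethanol minus saline was -7.67 for start-site peaks per library (54.0 with whole lists) and 0.00805 for median CpG density (-0.248 with whole lists), both reversed, and 3 ethanol-specific and 5 saline-specific regions were called (8 and 3 with whole lists); the cause was not tested. With summits within 250 bp 1 saline-specific region was called, with summits within 1000 bp 14 ethanol-specific regions, and where only a peak within 500 bp counted as held 1 saline-specific region. With -log10 q of 15 or more, 5 of the 8 ethanol-specific and 2 of the 3 saline-specific calls held. Leaving out 1 library gave 10 to 16 ethanol-specific and 3 to 5 saline-specific regions. A call then has fewer libraries to satisfy, so these counts are not compared with the 8 and 3 of whole lists. The differences were 46.5 to 68.5 in start-site peaks and -0.361 to -0.137 in median CpG density. In the share of all peaks they were -0.101 to 0.00487 percentage points, where the positive value came without ethanol replicate 2. Near minus farther promoter peaks stayed at 1.20 to 1.29 for CpG density, 11.2 to 13.9 percentage points for the share in all lists and 0.322 to 0.421 for fold, with p = 0.0625 in the exact sign-flip permutation test, the smallest 5 libraries allow. Under equal lists, stricter q and both other windows these 3 kept their direction at the smallest p, but their sizes moved, to as little as 0.910, 8.01 and 0.175 with summits within 1000 bp, from 1.26, 13.1 and 0.375. Whether replicate numbers pair the animals is not known. Deviations of same-numbered libraries correlated at -0.0496, -0.0117 and 0.00249, and those of differently numbered ones at -0.0325 to 0.0470. Such values cannot show which pups share a litter. With the replicate block the difference in start-site peaks was 54.0 (exact sign-flip permutation p = 0.25). By the same test that in their share of all peaks was -0.0531 (p = 0.5, exact) and that in CpG density -0.248 (p = 0.25, exact).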

Other observations

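Genes of a single exon were frequent among the start-site regions. Of 376 regions with a known exon count 93 had a single exon (24.7%), as did 36 of 122 held by all 6 libraries (29.5%), compared with 8.30% of all coding starts. Without receptor genes, many of which lack introns, the shares were 18.7% of start-site regions and 3.80% of coding starts. Among those held by all 6 were D1Pas1, Tktl2 and Rpl10l, intronless relatives of genes that are used throughout the body, and H1fnt and Actl7b, known from spermatids. Near the TSS 25.6% ± 1.22 of peaks per library were at single-exon genes, against 15.6% ± 1.21 of promoter-class peaks more than 500 bp away (SD over 6 libraries), higher in 6 of 6 (exact sign-flip permutation, adjusted p = 0.0352). In a short gene the window around the start covers more of the gene body, and its part in this difference was not tested. These genes were named after their values were seen.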
